A study of Mus musculus with 6 samples.

Results

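Collagens, laminins and integrins build and read the extracellular matrix around mouse embryonic stem cells, and their transcripts were followed here when the RNA-binding protein Trim71 was knocked down. Members were taken by name from the probe sets with 1 annotated gene symbol: every collagen chain gene, every laminin alpha, beta or gamma chain gene, every gene whose symbol begins with Itga or Itgb, and fibronectin (Fn1), nidogen 1 and 2 (Nid1, Nid2), perlecan (Hspg2) and agrin (Agrn). This gave 93 of 34760 probe sets, which stand for 90 of the 19937 named genes: 44 collagen genes, 15 laminin and partner genes, and 31 integrin genes. Of the 31, 4 match by name but encode no receptor subunit. They are Itgb1bp1, which binds the tail of the beta 1 subunit, Itgb1bp2, a muscle protein, Itgb3bp, a centromere protein, and Itgbl1, a secreted protein with integrin-like repeats.

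Total RNA was measured on 6 single-colour Affymetrix arrays, 3 per group. The control cells are given as wild-type embryonic stem cells, and the knockdown cells as the same cell type treated with a mixture of 3 siRNAs against Trim71 with Dharmafect1, a lipid transfection reagent, and harvested after 72 h. The protocol also names a non-targeting siRNA, but the sample labels do not say whether the control arrays received it, and the cell line and the use of feeder cells are not given. A transient knockdown leaves part of the transcript: Trim71 read 10.48, 10.50 and 10.51 on the control arrays and 9.001, 8.95 and 8.98 on the knockdown arrays. Its log2 fold change was −1.52 ± 0.045 SE (adjusted p = 2.80e-05 in limma), so 34.9% of the signal remained.

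As background, laminin is a cross-shaped trimer of an alpha, a beta and a gamma chain that assembles into the first basement membrane of the embryo. Nidogens and perlecan tie that sheet to a second network made of type IV collagen, and fibrillar collagens such as type I give tensile strength to connective tissue further away. Integrins are alpha-beta pairs in the cell membrane. The alpha 6 beta 1 pair is known as a laminin receptor of embryonic stem cells and the alpha 5 beta 1 pair as a fibronectin receptor, and mouse embryos without the beta 1 subunit fail soon after implantation.

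Few of these genes passed the test, and most of the measured changes were small. At an adjusted p under 0.05 in limma, 1 member was higher, the basement membrane collagen gene Col18a1, and 2 were lower, the laminin alpha chain gene Lama1 and the type VI collagen gene Col6a5. That is 3 of 90 members, or 3.33%, where 5.53% of all 19937 genes were called, 3.39% of all genes higher and 2.15% lower. An unadjusted p under 0.05 was reached by 10 of the 90 members, 11.1%, and by 19.0% of all genes. The median log2 fold change was 0.004 over the members and 0.005 over all genes, and the median size of a change was 0.06 against 0.07. In 13 members the 3 control and 3 knockdown values did not overlap, 14.4% of members against 25.5% of all genes. The knockdown values were the lower ones for Col4a1, Col5a3, Col6a5, Itga9, Itgb1 and Lama1, and the upper ones for Col18a1, Itgb4, Itgb6, Itgb7, Lama5, Lamc1 and Nid1. These counts describe the members beside the background and carry no test of the set.

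The fits also bounded how far the members could have moved. For 89 of the 90 members the 95% confidence interval of the change lay inside 1.5-fold in both directions, and the exception was Col6a5. For 72 of 90, or 80.0%, it lay inside 1.25-fold, close to the 76.3% of all genes (97.8% for 1.5-fold). A dim probe set understates a change of its transcript, which limits these bounds. Of the 90 members, 57 read at or below the median log2 signal of all genes, 6.70, among them 33 of 44 collagens and 20 of 31 integrin genes but 4 of 15 laminin and partner genes. Signals of different probe sets are not amounts of transcript, and no detection call came with the values, so no member is called present or absent. Among the 33 brighter members 2 were called, 6.06% against 9.24% of all genes above that median, and 10 did not overlap, 30.3% against 38.3%.

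**Figure D1:**
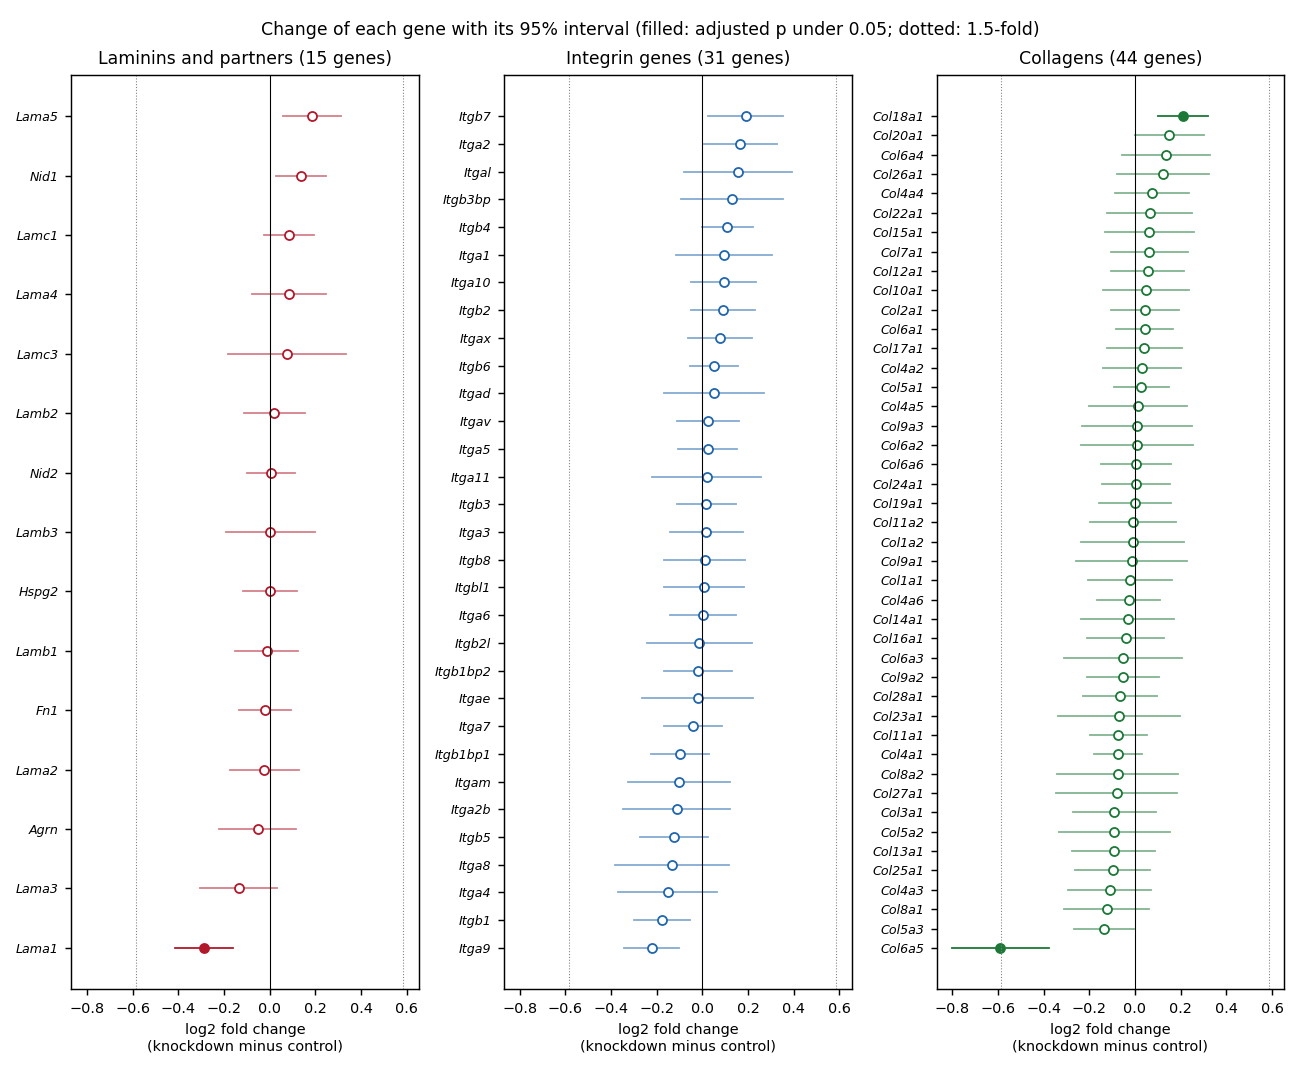
Log2 fold change (knockdown minus control, x axis) of the 90 genes in 3 panels, each with its 95% confidence interval; filled points passed an adjusted p of 0.05 and dotted lines mark 1.5-fold. Col18a1, Lama1 and Col6a5 are the filled points, and the interval of Col6a5 alone crosses a dotted line.

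Of the 15 laminin and partner genes, 0 were higher and 1 was lower in limma, 6.67% called against 5.53% of all genes. An unadjusted p under 0.05 was reached by 3, or 20.0% against 19.0% of all genes. Lama1 encodes the alpha chain of laminin-111, the laminin of the early embryo and of Reichert's membrane. It read 8.27, 8.35 and 8.31 on the control arrays and 7.98, 7.99 and 8.11 on the knockdown arrays. Every knockdown value was below every control value, with knockdown array 3 nearest to the controls. Lama1 fell from 8.31 ± 0.040 (SD, n = 3) to 8.02 ± 0.070 (SD, n = 3), a level 1.22-fold lower, with a log2 fold change of −0.29 ± 0.055 SE and an adjusted p of 0.0265. The direction was the same in each of the 15 alternative fits, and the call was lost in 8 of them. With 5 arrays it was lost without control array 1, 2 or 3 (adjusted p of 0.0913, 0.12 and 0.0947) and without knockdown array 1 or 2 (0.0747 and 0.102), while it held without knockdown array 3 (0.016). Calls over all genes fell from 1103 to between 249 and 654 in those 5 fits, and were 1302 without knockdown array 3.

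The other alpha chain with a bright probe set differed in direction from Lama1 without passing the test. Lama5, the alpha chain of laminin-511, on which embryonic stem cells can be grown without feeders, read 9.23, 9.30 and 9.32 on the control arrays and 9.45, 9.41 and 9.54 on the knockdown arrays. The groups did not overlap and the knockdown values were the upper ones. The log2 fold change of 0.19 ± 0.054 SE did not pass with an adjusted p of 0.107, and it passed in 2 of the 15 alternatives, a trended and robust prior and the brighter part of the genes. In those 2 fits 10.4% and 19.0% of all tested genes were called, against 5.53% as reported. Set against each other within an array, the log2 signal of Lama5 minus that of Lama1 was 0.95, 0.95 and 1.002 in the controls and 1.47, 1.42 and 1.43 in the knockdown. The difference shifted by 0.47, from 0.97 ± 0.030 to 1.44 ± 0.025 (SD, n = 3 each). The pair was set side by side after its values were seen, so the shift is a description of unequal change.

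The chains that join either alpha chain did not pass the test. Lamb1, the beta 1 chain, read 8.64, 8.72 and 8.71 against 8.66, 8.60 and 8.76 in the knockdown, a log2 fold change of −0.01 ± 0.059 SE. Lamc1, the gamma 1 chain, read 10.56, 10.58 and 10.53 against 10.67, 10.60 and 10.66, with a log2 fold change of 0.09 ± 0.047 SE and an adjusted p of 0.394. The values of Lamb1 overlapped between the groups, and those of Lamc1 did not, with control array 2 just below knockdown array 2. Lama3, an alpha chain of skin and other lining epithelia, was at −0.14 ± 0.072 SE (adjusted p = 0.378) from a dim probe set. The remaining chains, Lama2, Lama4, Lamb2, Lamb3 and Lamc3, lay between −0.02 and 0.08.

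The partners of laminin held bright signals, all 5 above the median of all genes, and 0 of the 5 passed in limma (1 at an unadjusted p under 0.05). Nid1, which clamps the laminin gamma 1 chain to type IV collagen, read 10.44, 10.47 and 10.39 on the control arrays and 10.56, 10.58 and 10.58 on the knockdown arrays. Its knockdown values were all above the controls, and the log2 fold change was 0.14 ± 0.046 SE with an adjusted p of 0.153. Like Lama5, Nid1 passed with a trended and robust prior (adjusted p of 0.0125, and 0.0195 for Lama5) and in the brighter part of the genes (0.0414, and 0.0306 for Lama5). Calls over all tested genes rose in the same fits, from 5.53% to 10.4% and 19.0%.

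Its paralog Nid2 read 10.53, 10.56 and 10.59 in the controls and 10.56, 10.56 and 10.58 in the knockdown, and the values lay on top of each other. The log2 fold change of Nid2 was 0.01 with a 95% confidence interval from −0.10 to 0.11. Fn1, which encodes the adhesive glycoprotein fibronectin and the ligand of several RGD-binding integrins, read 11.97, 11.98 and 11.91 against 11.89, 11.95 and 11.96, a log2 fold change of −0.02 with an interval from −0.14 to 0.09. Hspg2, the heparan sulfate proteoglycan perlecan, was at 0.00 with an interval from −0.12 to 0.12, and the proteoglycan gene Agrn was at −0.05 with an interval from −0.22 to 0.12. Agrn spread most within the knockdown group, with values of 9.77, 9.85 and 10.04. For these 4 genes a change beyond 1.25-fold lay outside the interval, and the sign of each turned in at least 1 alternative fit.

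**Figure D2:**
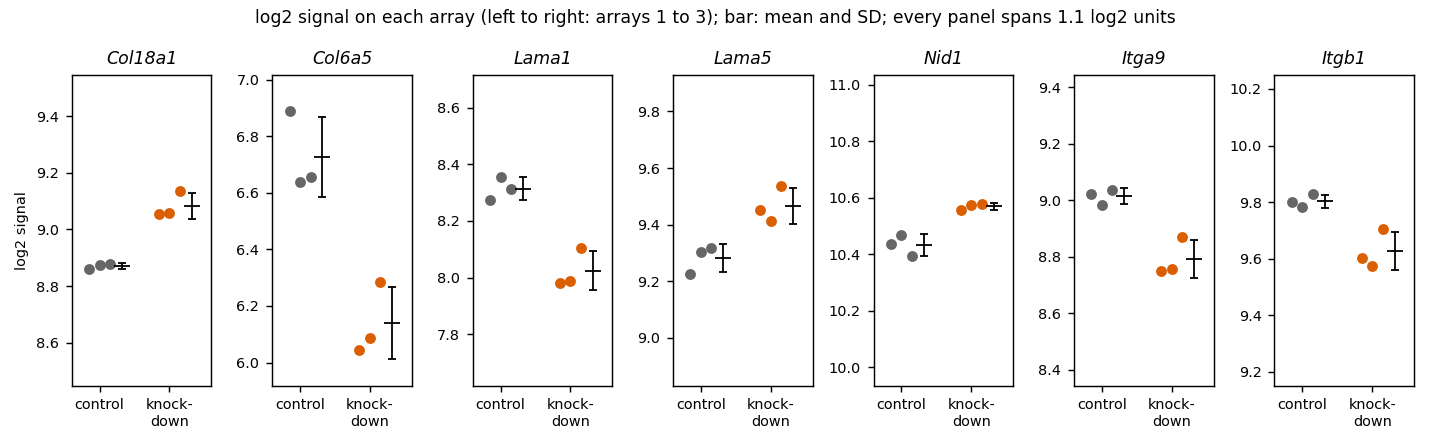
Log2 signal (y axis) of 7 members on the 3 control arrays (grey) and the 3 knockdown arrays (orange), arrays 1 to 3 from left to right, with mean and SD beside them; every panel spans the same number of log2 units. Groups do not overlap in any of the 7 panels, and knockdown array 3 is the knockdown value nearest to the controls for Lama1, Col6a5, Itga9 and Itgb1.

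Of the 31 integrin genes, 0 passed in limma in either direction, where 5.53% of all genes did. An unadjusted p under 0.05 was reached by 4, or 12.9% against 19.0% of all genes. All 4 are receptor subunits: Itga9, Itgb1, Itgb7 and Itga2. The median log2 fold change of the family was 0.02 and the changes ran from −0.22 for Itga9 to 0.19 for Itgb7. For all 31 integrin genes the 95% confidence interval lay within 1.5-fold, where 97.8% of all genes did. For 22 of the 31 it lay within 1.25-fold, where 76.3% of all genes did. Of the 31, 20 had dim probe sets, which limits these bounds. The count of 0 was not the same in every fit: 2 genes were called with array weights, with a trended and robust prior, in the brighter part of the genes and without knockdown array 3, and 1 after either other scaling of the arrays. The share of all tested genes called also rose, from 5.53% to 10.9%, 10.4%, 19.0% and 6.53% in that order. It was 7.73% after repeated quantile normalization and 5.73% after centring on medians.

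Itga9, an alpha subunit that pairs with beta 1 and binds tenascin-C among other ligands, came closest. It read 9.02, 8.98 and 9.04 on the control arrays and 8.75, 8.76 and 8.87 on the knockdown arrays. All knockdown values lay below the controls, with knockdown array 3 nearest to them. The log2 fold change was −0.22 ± 0.052 SE and the adjusted p was 0.0543. With the other 5 arrays, leaving out knockdown array 3 gave 0.0244, and leaving out any of the others gave between 0.134 and 0.193.

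Itgb1 encodes the beta subunit shared by the laminin, collagen and fibronectin receptors. It read 9.80, 9.78 and 9.83 in the controls and 9.60, 9.57 and 9.70 in the knockdown. The groups did not overlap, and the log2 fold change of −0.18 ± 0.053 SE had an adjusted p of 0.113 (0.0422 without knockdown array 3). A fall of more than 1.25-fold lay outside its interval, which ran from −0.30 to −0.05. Of the alpha subunits that pair with it, none passed, and their changes ran to either side of 0. Itga4 and Itga8, which bind fibronectin among other ligands, were at −0.15 ± 0.093 SE and −0.13 ± 0.107 SE with overlap between the groups.

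Itga6, the laminin-binding alpha 6 subunit, read 10.50, 10.49 and 10.49 on the control arrays and 10.38, 10.55 and 10.57 on the knockdown arrays. The controls lay close together and the knockdown values fell on either side of them, so the log2 fold change was 0.00 with an interval from −0.14 to 0.15. Itga5, the fibronectin-binding alpha 5 subunit, read 9.65, 9.70 and 9.62 against 9.62, 9.66 and 9.76, at 0.02 with an interval from −0.10 to 0.15, and the groups overlapped. Itga3 and Itga7, which also bind laminin, were at 0.02 and −0.04. For Itga5, Itga6 and Itgav the sign turned in at least 1 alternative fit. Itgav, the alpha subunit of vitronectin receptors, read 9.61, 9.60 and 9.60 against 9.52, 9.65 and 9.71, a log2 fold change of 0.03 with an interval from −0.11 to 0.16. Its partner Itgb5 read 9.20, 9.32 and 9.34 against 9.11, 9.12 and 9.26, with overlap through knockdown array 3, and was at −0.12 ± 0.064 SE (adjusted p = 0.364).

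The remaining 2 subunits at an unadjusted p under 0.05 were higher in the knockdown. Itgb7, the beta subunit of lymphocyte homing receptors, was at 0.19 ± 0.071 SE (adjusted p = 0.197), with 7.34, 7.34 and 7.27 in the controls and 7.51, 7.37 and 7.63 in the knockdown. Itga2, a collagen-binding alpha subunit of platelets and epithelia, was at 0.17 ± 0.069 SE (adjusted p = 0.242) from a dim probe set at 4.77 in the controls, and its groups overlapped. Itgb4, which pairs with alpha 6 in hemidesmosomes, was at 0.11 ± 0.048 SE (adjusted p = 0.267) without overlap between groups. The 4 collagen-binding alpha subunits lay between 0.02 and 0.17, and the 5 leukocyte alpha subunits, all dim, between −0.10 and 0.16. Itgad had a second probe set, and the 2 gave 0.05 and 0.03. The 4 genes that match by name only lay between −0.10 and 0.13.

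**Figure D3:**
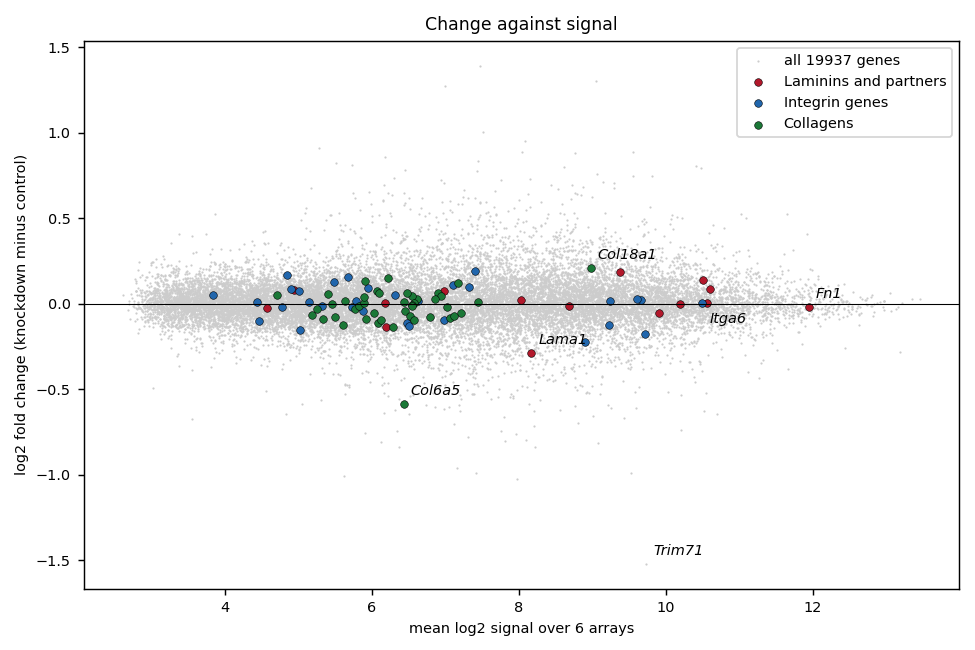
Mean log2 signal over the 6 arrays (x axis) against log2 fold change (y axis) for all 19937 genes in grey and the 3 families in colour. The members lie close to the zero line at all signals, Lama1, Col6a5 and Col18a1 stand out of their families, and Trim71 is the lowest point of the plot.

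Of the 44 collagen genes, 1 was higher, 1 was lower and 42 did not pass in limma, 4.55% called against 5.53% of all genes. An unadjusted p under 0.05 was reached by 3, or 6.82% against 19.0% of all genes. The median log2 fold change was −0.01. Col18a1 encodes the core protein of a heparan sulfate proteoglycan of basement membranes, whose released end is the fragment endostatin. It read 8.86, 8.88 and 8.88 on the control arrays and 9.05, 9.06 and 9.14 on the knockdown arrays. The controls lay close together and every knockdown value was above them. Col18a1 rose from 8.87 ± 0.0098 to 9.08 ± 0.046 (SD, n = 3 each), a level 1.16-fold higher, with a log2 fold change of 0.21 ± 0.047 SE and an adjusted p of 0.0456. That call was the narrowest of the 3. It was lost in each of the 6 fits that omitted 1 array, at adjusted p-values of 0.178, 0.159 and 0.137 without control array 1, 2 or 3 and 0.0838, 0.117 and 0.0564 without knockdown array 1, 2 or 3. It was also lost with arrays centred on their medians (0.0615), without variance moderation (0.058) and with every probe set tested (0.112), and 5 of the 15 alternatives kept it.

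RefSeq annotates more than 1 start site for Col18a1, and both windows are shown because the probe set values do not tell which start the added signal came from. Each runs from 250 bases before to 50 bases after the start. Capitals mark the GC box letters GGGCGG and the TATA box letters TATAAA on either strand, motifs that do not overlap each other here. The window of Col6a5, the collagen that went the other way, stands with them.
Col18a1 upstream start, GRCm38.p6 chr10:77166481-77166780, minus strand: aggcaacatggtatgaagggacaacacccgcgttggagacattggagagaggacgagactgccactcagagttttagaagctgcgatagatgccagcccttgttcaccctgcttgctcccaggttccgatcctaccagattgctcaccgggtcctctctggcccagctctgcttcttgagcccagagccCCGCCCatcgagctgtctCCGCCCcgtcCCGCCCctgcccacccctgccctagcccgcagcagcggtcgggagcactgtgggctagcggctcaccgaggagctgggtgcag
Col18a1 downstream start, GRCm38.p6 chr10:77113656-77113955, minus strand: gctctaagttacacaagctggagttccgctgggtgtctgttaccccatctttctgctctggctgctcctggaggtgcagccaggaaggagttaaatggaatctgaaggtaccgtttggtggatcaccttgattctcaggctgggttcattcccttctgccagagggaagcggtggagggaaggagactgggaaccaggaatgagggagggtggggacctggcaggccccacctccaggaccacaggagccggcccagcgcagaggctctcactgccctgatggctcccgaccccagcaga
Col6a5, GRCm38.p6 chr9:105960594-105960893, minus strand: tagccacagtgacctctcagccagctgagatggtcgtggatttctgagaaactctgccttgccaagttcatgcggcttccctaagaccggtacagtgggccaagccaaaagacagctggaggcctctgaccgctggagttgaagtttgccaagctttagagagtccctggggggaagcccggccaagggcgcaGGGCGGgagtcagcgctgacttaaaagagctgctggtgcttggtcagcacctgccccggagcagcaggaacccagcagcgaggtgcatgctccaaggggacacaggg
The upstream Col18a1 window holds 3 GC box matches and 16 CpG, the downstream window 0 matches and 6 CpG, and the Col6a5 window 1 GC box match and 10 CpG. The TATA letters are in none of the 3. Of all 32851 RefSeq windows of this length, 35.7% hold the GC box letters and 13.6% the TATA letters, and the median is 7 CpG. Of the 72 windows of 65 members in that table, 55.6% and 6.94% hold them. Lama1 is not among those members.

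Col6a5 encodes one of the long alpha chains of type VI collagen, which forms beaded filaments between basement membrane and connective tissue. It read 6.89, 6.64 and 6.66 in the controls and 6.05, 6.09 and 6.28 in the knockdown. Every knockdown value was below every control value, although both groups scattered more than those of Lama1. Col6a5 fell from 6.73 ± 0.14 to 6.14 ± 0.13 (SD, n = 3 each), to 0.665 of the control signal, with a log2 fold change of −0.59 ± 0.091 SE and an adjusted p of 0.0136. The call was lost without control array 1 (adjusted p = 0.0509) and without knockdown array 2 (0.0628). The probe set was dim, with a mean of 6.43 against a median of 6.70 over all genes. The fit of the brighter part of the genes therefore left Col6a5 out. Of the 14 alternatives that tested it, 9 kept the call.

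A second probe set of Col6a5 disagreed with the first. It read 6.12, 6.17 and 6.33 in the controls and 6.22, 6.13 and 5.97 in the knockdown, and the groups overlapped. In a fit of every probe set the first was at −0.59 (adjusted p = 0.0576) and the second at −0.10 ± 0.088 SE (adjusted p = 0.701), and the mean of both gave −0.34, still called (adjusted p = 0.0107). Both neighbours of Col6a5 on the chromosome are type VI chains of the same kind, and neither passed: Col6a6 was at 0.01 ± 0.066 SE and Col6a4 at 0.14 ± 0.084 SE. The second probe set of Col6a6 was at −0.07. The widely made type VI chains Col6a1, Col6a2 and Col6a3 were at 0.04, 0.01 and −0.05.

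Type IV collagen is the sheet-forming collagen that lies against laminin. Col4a1 read 6.84, 6.81 and 6.83 in the controls and 6.78, 6.72 and 6.77 in the knockdown, below the controls on every array by a small margin, with a log2 fold change of −0.08 ± 0.045 SE (adjusted p = 0.441). Col4a2 read 6.52, 6.53 and 6.74 against 6.70, 6.56 and 6.63, with overlap between the groups and a log2 fold change of 0.03 ± 0.074 SE (adjusted p = 0.883). The protein is a trimer of both chains, and the 2 genes lie head to head. Their RefSeq start windows overlap by 78 bases on opposite strands, shown in capitals within the Col4a2 window because both genes start there.
Col4a2, GRCm38.p6 chr8:11312555-11312854, plus strand: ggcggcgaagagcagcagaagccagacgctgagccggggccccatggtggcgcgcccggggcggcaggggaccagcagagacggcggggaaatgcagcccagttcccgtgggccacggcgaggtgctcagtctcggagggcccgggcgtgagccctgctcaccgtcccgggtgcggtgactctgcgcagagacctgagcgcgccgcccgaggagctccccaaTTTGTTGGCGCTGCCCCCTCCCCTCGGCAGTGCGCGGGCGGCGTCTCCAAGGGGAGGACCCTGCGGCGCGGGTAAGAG
The shared stretch is chr8:11312777-11312854, and the whole Col4a2 window holds 33 CpG. All 6 type IV chain genes lay between −0.11 and 0.07 and had intervals within 1.25-fold, as did 76.3% of all genes. Of the 6, 5 had dim probe sets, which limits these bounds. In 11 pairs of members that are direct neighbours among the protein-coding genes of RefSeq, 4 pairs had changes of the same sign and 7 did not. Those pairs include Col3a1 and Col5a2, both at −0.09, and Col4a4 and Col4a3, at 0.07 and −0.11.

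Fibrillar collagens, which make the fibres of bone, cartilage and skin, were called for 0 of 11 in limma, with 1 at an unadjusted p under 0.05 and changes from −0.14 to 0.04. That gene was Col5a3, a chain of type V collagen, at −0.14 ± 0.056 SE (adjusted p = 0.243), with 6.41, 6.29 and 6.38 in the controls and 6.26, 6.26 and 6.15 in the knockdown. The main chains of type I collagen, Col1a1 and Col1a2, were at −0.02 and −0.01, with Col1a1 at 7.03, 6.97 and 7.11 in the controls and 7.15, 7.03 and 6.87 in the knockdown, on both sides of them. The type II and type III genes Col2a1 and Col3a1 were at 0.04 and −0.09. The 9 fibril-associated collagens, which coat those fibres, lay between −0.05 and 0.15 with 0 called and 0 at an unadjusted p under 0.05. Col20a1, with 6.15, 6.07 and 6.22 against 6.40, 6.28 and 6.21, was the highest of them at 0.15 ± 0.065 SE (adjusted p = 0.268). Col9a2 and Col9a3, chains of cartilage type IX collagen, were at −0.05 and 0.01, and Col26a1 at 0.12 ± 0.087 SE (adjusted p = 0.523). The 4 transmembrane and the 3 short-chain collagens lay between −0.12 and 0.05. Col21a1 had no probe set with a single symbol and was not analysed here.

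**Figure D4:**
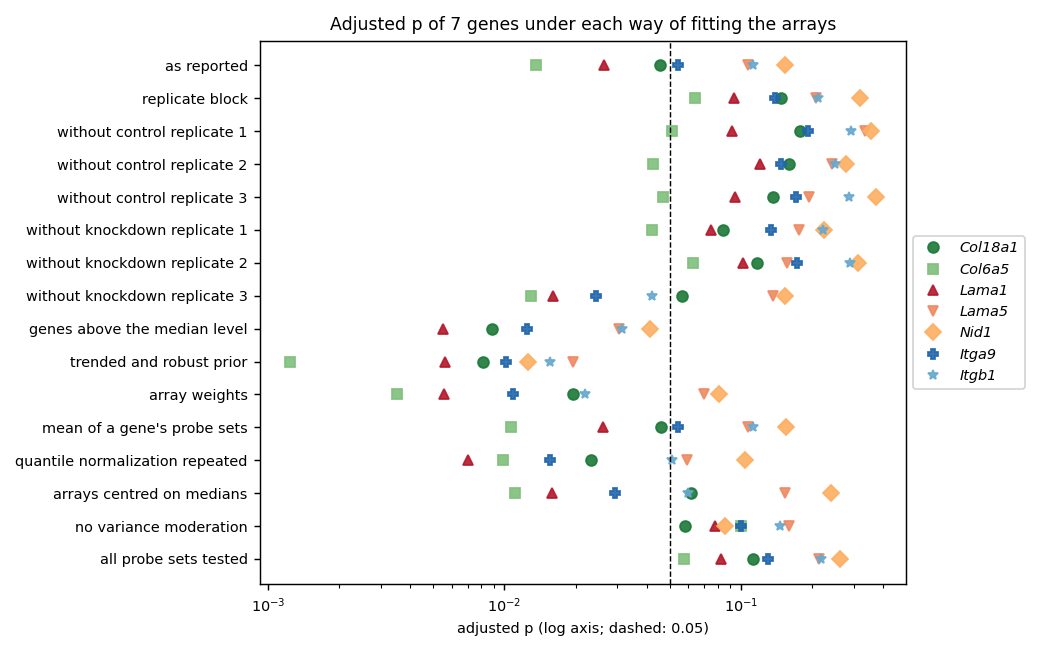
Adjusted p (x axis, log scale) of 7 members as reported and in 15 other fits (y axis), with the dashed line at 0.05. Col18a1 lies left of the line in 5 of the 15, Lama1 in 7 and Col6a5 in 9 of the 14 that tested it, and none of the 7 lies left of it in every fit.

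The knockdown arrays were the more scattered group. The SD among knockdown arrays exceeded that among controls for 67 of 90 members, 74.4%, against 66.4% of all genes, and knockdown array 3 was the farthest from the knockdown mean of the 3 for 50 of 90, 55.6% against 49.7% of all genes. The root mean square deviation of the members from their group means was 0.13 on knockdown array 3 and between 0.06 and 0.10 elsewhere, and their median deviation there was −0.07. Over all genes that array also deviated most, by 0.11. Without knockdown array 3, 4 members were called, Lama1, Col6a5, Itga9 and Itgb1, all lower, while 1302 of all 19937 genes were called (6.53%), 603 higher and 699 lower. No replicate is stated to be a separate culture, so the p-values take in only the spread among these 6 samples, and that spread may be a technical one.

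The genes that handle the matrix were read from 5 lists, beside 5.53% of all genes called, 3.39% higher and 2.15% lower. These lists, like the cell type markers below, were chosen with earlier results of these data known, so their shares carry no test. Those that process and crosslink collagen had 0 higher and 2 lower of 33 measured (6.06%), with a median of 0.03. These were Plod1, a lysyl hydroxylase of collagen, at −0.31 ± 0.065 SE (adjusted p = 0.036), and Tll1, a procollagen protease, at −0.38 ± 0.062 SE (adjusted p = 0.0165). The proteins that gather on integrin tails at adhesions had 0 called of 33 in limma and a median of 0.03. An unadjusted p under 0.05 was reached by 6 of the 33, and by 19.0% of all genes.

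Matrix proteases and their inhibitors had 1 higher and 2 lower of 31 (9.68%), with a median of 0.05. Adamts1, which cleaves proteoglycans, went from 6.06 ± 0.054 to 6.85 ± 0.085 (SD, n = 3 each), a rise of 0.78 ± 0.060 SE (adjusted p = 0.00173), more than any member. The gelatinase gene Mmp9 fell by 0.38 and Reck, a membrane-anchored inhibitor of metalloproteinases, fell by 0.22. Matrix receptors other than integrins had 2 higher and 3 lower of 28 (17.9%, against 5.53% of all genes), with a median of 0.02: the endocytic receptor gene Lrp1 rose by 0.33 and the receptor phosphatase gene Ptprf by 0.30, while the glypican genes Gpc6 and Gpc3 fell by 0.39 and 0.28 and the agrin receptor gene Lrp4 fell by 0.35.

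Other glycoproteins and proteoglycans of the matrix had 4 higher and 0 lower of 37, or 10.8% against 3.39% of all genes higher, with a median of 0.02. They were Thbs1, the adhesive glycoprotein thrombospondin 1, at 0.51 ± 0.061 SE, Efemp1, a fibulin, at 0.62 ± 0.10 SE, Tgfbi, an integrin ligand, at 0.48 ± 0.066 SE, and Ccn1, a matricellular ligand of integrins, at 0.32 ± 0.059 SE. Ccn1 was chosen after its value was seen. Adamts1, Mmp9, Tll1 and Efemp1 had dim probe sets, with means of 6.45, 6.58, 5.72 and 6.68 over the 6 arrays. Of the 14 called list genes, Adamts1 and Thbs1 were called with each of the 6 arrays left out. The 14 became 3, 4 and 7 without control array 1, 2 or 3, and 10, 7 and 14 without knockdown array 1, 2 or 3. In the same fits the calls over all genes went from 1103 to 249, 281 and 365, and to 654, 344 and 1302.

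**Figure D5:**
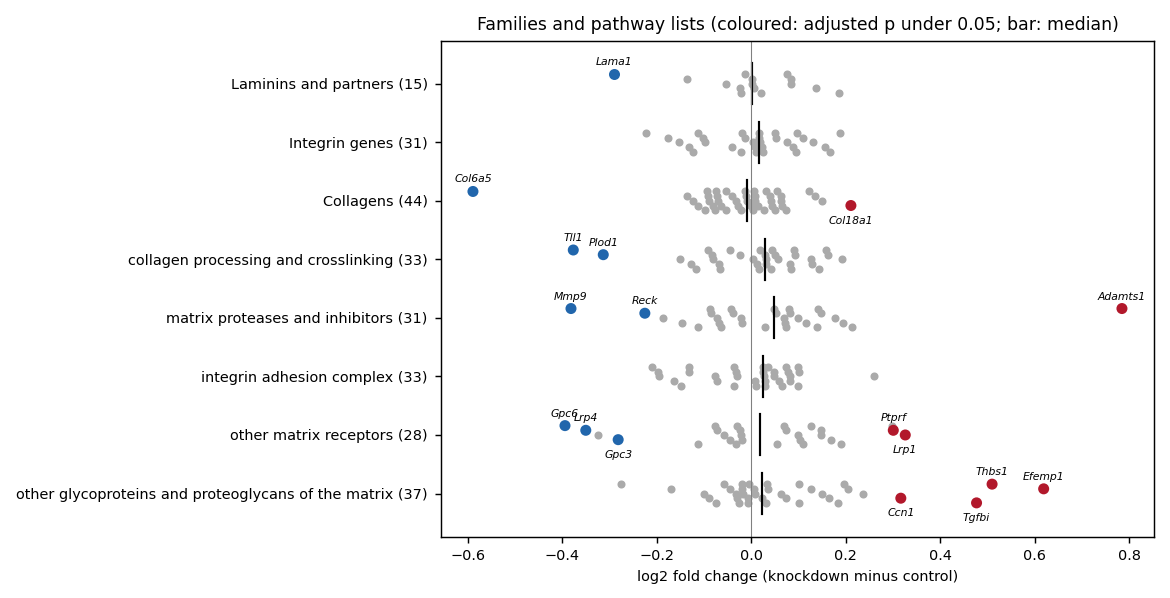
Log2 fold change (x axis) of the members of the 3 families and of 5 lists of matrix genes (y axis, number measured in brackets); coloured points passed an adjusted p of 0.05 and the bar is the median. The medians lie between −0.01 and 0.05, and Adamts1, Efemp1 and Thbs1 lie further right than any collagen, laminin or integrin gene.

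Markers of the labelled cell type were bright. Most fibroblast, endoderm, leukocyte and endothelial markers were dim, while the trophectoderm and muscle lists held both bright and dim genes. All 10 embryonic stem cell markers read above the median signal of all genes. Their mean log2 level was 11.47 to 11.51 on the control arrays and 11.62 to 11.68 on the knockdown arrays. Klf4, Zfp42 and Fgf4 passed upward, 30.0% of the list against 3.39% of all genes higher. Among all genes above the median signal, 567 of 9968 were higher. An unadjusted p under 0.05 in limma was reached by 6 of the 10, and by 19.0% of all genes. Fibroblast or feeder markers were dim for 9 of 10 and called for 0 in limma (0 at an unadjusted p under 0.05), with mean levels of 4.87 to 4.97 in the controls and 4.88 to 5.03 in the knockdown. The endoderm list, which covers cells that secrete laminin-111 and type IV collagen in the embryo, was dim for 9 of 12 and called for 0 (0 at an unadjusted p under 0.05), with mean levels of 5.96 to 6.06 and 5.93 to 6.001. Of 10 trophectoderm markers 5 were dim, and the brightest was Krt8 at 11.16. In that list 1 was higher, Tfap2c at 0.53, with 4 at an unadjusted p under 0.05 in limma. Leukocyte markers were dim for 8 of 10 (brightest Laptm5 at 10.02) and endothelial markers for 7 of 10 (brightest Pecam1 at 9.23). Of these 2 lists 0 were called, with 2 in each at an unadjusted p under 0.05. Of 8 muscle markers 4 were dim, and the brightest was Acta2 at 8.80. In that list 2 were lower, Acta2 at −0.70 and Tagln at −0.34, which is 25.0% against 2.15% of all genes lower. An unadjusted p under 0.05 in limma was reached by 3 of the 8. The mean level of the muscle list was 6.85 to 6.95 in the controls and 6.74 to 6.81 in the knockdown. The part of the trophectoderm and muscle markers in the matrix results was not tested. In such bulk samples, fewer cells of a type and less RNA per cell cannot be told apart.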

How the data were processed

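The values are log2 expression per probe set and array, which the authors made from scanned intensities with RMA and the affy package and then deposited, per the submitters' processing notes. No version of either is given in the sources used here. This method corrects background, quantile normalizes and summarises probes, which hides any shift common to most genes. Amplified and biotin-labelled material came from 100 ng of RNA, per the labels.

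Gene symbols came from the platform's annotation at GEO and may be outdated. Of 34760, 21640 had 1 symbol, 1321 several and 11799 none. All 93 member probe sets matched RefSeq by Entrez identifier. Where a gene had several (954 genes), its brightest probe set by the mean of the 6 arrays stood for it. With no filter on signal this left 19937 genes.

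A linear model with group as the only term was fitted to all genes with limma 3.58.1 in R 4.3.3 (lmFit, eBayes), with Benjamini-Hochberg adjustment over 19937 genes and calls at an adjusted p under 0.05. Errors are standard errors of this fit, and intervals are 95%. The exact two-sided permutation p for Trim71 was 0.1, the smallest that 3 against 3 arrays allow. Python 3.11.15, pandas 2.3.3, scipy 1.17.1 and matplotlib 3.10.9 made tables and plots. On simulated data with 200 of 19937 genes changed, 95.0% of 1.5-fold and 100% of 2-fold changes were recovered, and 5.34% of calls were unchanged genes. No 2 arrays were identical.

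Members and lists were chosen with earlier results of these data known. Named genes are called members, per family the 5 with the largest absolute statistic and the 4 with the highest signal, 14 matrix and receptor genes of early embryos whatever their values, up to 3 called genes per list and direction, and Trim71. Others were chosen after their values were seen. Alternatives were a block for replicate number, omission of each array, the brighter part of the genes, a trended and robust prior, array weights, the mean of a gene's probe sets, all probe sets, repeated quantile normalization, median centring, no moderation, and an adjusted p under 0.01. The number of arrays limits the precision.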

Additional observations from a re-analysis of the deposited data

How the results depend on the processing

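The Trim71 call held in all 15 alternative fits. The calls of collagen genes, 2 as reported, were 0 with the replicate block, without variance moderation, with all probe sets tested and at an adjusted p under 0.01 (2, 3, 2 and 3 at an unadjusted p under 0.05), 1 in the brighter part of the genes and with arrays centred on medians, and 0 to 1 with an array left out. For laminin and partner genes, 1 as reported, they were 0 with the replicate block, without moderation, with all probe sets and at 0.01, 3 in the brighter part and with a trended and robust prior, and 0 to 1 with an array left out. For integrin genes, 0 as reported, they were 2 in the brighter part, with a trended and robust prior and with array weights, 1 after repeated quantile normalization and after centring, 0 to 2 with an array left out, and 0 with the 27 receptor subunits alone. All genes together went from 1103 calls (5.53%) to 1890 of 9968 genes in the brighter part (19.0%). The calls over all genes were 2067 with the trended prior (10.4%), 2172 with array weights (10.9%), 413 without moderation and 279 with the replicate block. They were 249, 281 and 365 without control array 1, 2 or 3 and 654, 344 and 1302 without knockdown array 1, 2 or 3, so leaving out any array but knockdown array 3 lowered the count for all genes too. Same-numbered arrays had deviations that correlated at −0.02, −0.15 and −0.24. Between differently numbered arrays the values ran from −0.23 (control 2 with knockdown 1) to 0.28 (control 2 with knockdown 3). With deviations taken from means of 3 arrays, these correlations cannot decide whether samples were paired. The block result therefore stands beside the fit without it. The split between higher and lower calls was 675 and 428 as reported, 779 and 763 after repeated quantile normalization and 527 and 616 after centring; the cause was not tested.

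Some uncalled changes near 0 turned sign. After centring these were Hspg2 (−0.029), Itga5 (−0.0068), Itga6 (−0.026), Itgav (−0.0045), Nid2 (−0.023) and Col9a3 (−0.021). After repeated quantile normalization they were Col4a2 (−0.0023), Col9a3 (−0.013), Hspg2 (−0.011), Itga6 (−0.0049) and Nid2 (−0.00041), and with array weights Hspg2 (−0.0050) and Itga5 (−0.0032). With an array left out the log2 fold changes ranged from −0.13 to 0.0052 for Agrn, −0.0088 to 0.10 for Col4a2, −0.057 to 0.12 for Col9a3, −0.042 to 0.0019 for Fn1, −0.021 to 0.028 for Hspg2, −0.016 to 0.052 for Itga5, −0.032 to 0.066 for Itga6, −0.016 to 0.077 for Itgav, −0.058 to 0.026 for Lamb1 and −0.0077 to 0.021 for Nid2. Dim probe sets, which hold most collagen and integrin genes, limit what could be seen.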
